A study of Mus musculus with 9 samples.

Results

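67NR and 4T1 are mouse mammary tumor cell lines that were derived from the same Balb/c tumor. As background, 67NR forms primary tumors and is not known to spread from them, whereas 4T1 metastasizes to lung, liver and bone. The tumor cells of the 4T1 line were compared with those of the 67NR line across all detected genes, with 3 arrays for each line, which are 6 of the 9 arrays of the series. The genes of glycolysis and lipid metabolism are not described, and the text follows genes of cell identity, transcription factors, secreted factors, surface proteins and signalling. In both lines 500000 untreated cells were injected at the orthotopic site, the mammary fat pad. The hosts were female Balb/c mice of the Ub-GFP strain, which marks cells of the host with GFP (its promoter is not spelled out in the labels), and tumors grew for 2 to 4 weeks until they measured 10 mm across on average. Cells that carried neither GFP nor CD45 were sorted from the primary tumor and used ex vivo, and their amplified, biotin-labeled RNA was hybridized to Illumina bead arrays. Each line is a single cell line, the age of the mice is not stated, and nothing in the labels says that the replicates came from separate mice, so that p-values measure the spread between these arrays. The remaining 3 arrays, of the line 4T07, entered the fit only to share its estimate of the spread.

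All values below are log2 intensities after background correction and quantile normalization, and a difference is the mean of 4T1 minus the mean of 67NR on that scale. Between 16025 and 17566 of 45281 probes were detected on an array. Arrays of a line correlated at 0.983 or higher, and 67NR arrays correlated with 4T1 arrays at 0.835 to 0.846. Of 10021 genes tested with limma, 2327 were higher in 4T1 and 2665 were lower at a Benjamini-Hochberg adjusted p under 0.05. These are 23.2% and 26.6% of the genes tested, or 49.8% together, and the median difference over all genes was -0.05. The arrays of both lines did not overlap for 58.7% of genes, and 21.9% of genes were both called and changed by at least 2-fold. A gene that was not above background on any array of a line has only a bound there: its fold is given as "at least", against the lowest signal of a detected probe on each array or the signal of the gene itself where that was higher. There were 537 genes detected on all 4T1 arrays and no 67NR array that were higher, and 338 genes with the opposite pattern that were lower. The genes were sorted into 52 lists by role, which hold 1950 genes, of which 1017 were measured. A list member detected only in the line where it is high had to differ, so for several lists counts are also given for members detected on all 6 arrays. Over the whole table, 1516 of the 7520 genes detected on all 6 arrays were higher and 2099 were lower. Each list count below is to be read beside the 23.2% of all genes tested that were higher and the 26.6% that were lower. In RNA from a sorted population, fewer cells of a type and less RNA per cell cannot be told apart.

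**Figure D1:**
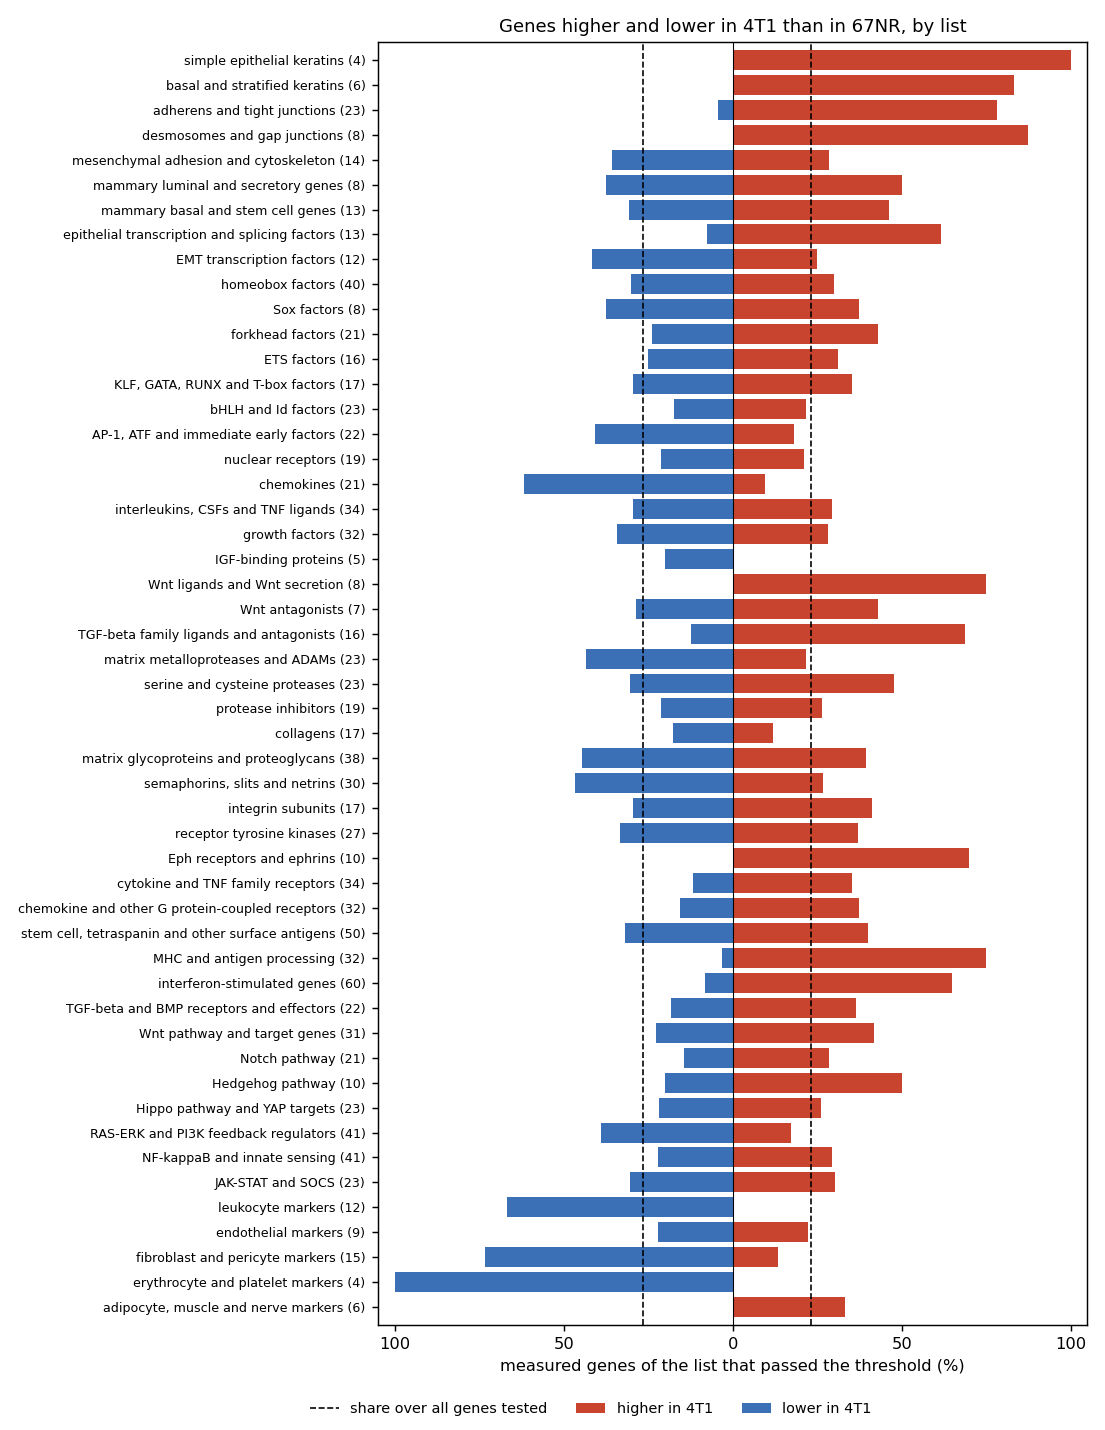
Share of the measured genes of each list shown that were higher (red, to the right) or lower (blue, to the left) in 4T1 than in 67NR at an adjusted p under 0.05, in percent, with the number of measured genes in brackets. The dashed lines mark the shares over all genes tested, 23.2% higher and 26.6% lower, and the keratin and junction lists extend furthest beyond them on the higher side among the lists of tumor cell genes. The shares include members detected only in the line where they are high, which had to differ.

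Epithelial cells are held together by E-cadherin junctions, claudin-based tight junctions and desmosomes, and keep their shape by keratin filaments. During epithelial-mesenchymal transition (EMT), transcription factors of the Snail, ZEB and Twist families repress these genes, and cells can gain vimentin, N-cadherin and matrix genes. Keratins of simple epithelia separated the lines. Krt18, the type I keratin of luminal cells, had log2 intensities of 4.47, 4.46 and 4.49 in 67NR and of 12.70, 12.87 and 13.01 in 4T1. It was not above background on any 67NR array and was at least 210-fold higher in 4T1 (limma, adjusted p = 6.6e-11). Its partner Krt8 was detected in 67NR at 5.60, 6.17 and 5.83 and reached 13.59, 13.59 and 13.81 in 4T1, a difference of 7.80 (SE 0.19). Krt7 and Krt19 were also higher, so that 4 of 4 measured members of this list, of 7 listed, were higher, and Krt8 was the only member detected on all 6 arrays. Keratins of basal cells were higher as well. Krt14 had values of 4.57, 4.64 and 4.71 in 67NR and 12.70, 12.42 and 12.98 in 4T1, at least 188-fold higher, and Krt17 was at least 33.5-fold higher. Of 6 measured basal and stratified keratins 5 were higher and 0 were lower, but 3 were higher without 4T1 replicate 1, without 67NR replicate 2 or without 67NR replicate 3, because Krt16 and Krt15 lost their calls. Krt15 was not above background on any 67NR array and was detected on 2 of 3 4T1 arrays. Krt5 did not pass the detection filter.

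Junction genes followed. Among adherens and tight junction genes, 18 of 23 measured members (36 listed) were higher and 1 was lower, with a median difference of 2.18 against -0.05 over all genes. Restricted to the 8 members detected on all 6 arrays, 5 were higher and 0 were lower. Cdh1, which encodes E-cadherin, was at 5.32, 4.71 and 4.95 in 67NR, where 1 of 3 arrays detected it, and at 9.87, 10.08 and 9.95 in 4T1, a difference of 4.97 (SE 0.17; limma, adjusted p = 6.2e-10). The tight junction claudin Cldn4 rose from 4.39, 4.65 and 4.36 in 67NR to 12.10, 12.35 and 12.68 in 4T1, at least 150-fold, and Cldn3 was at least 38.8-fold higher. The other direction was seen for Cldn1, which fell by 1.36. Spint1, an inhibitor of membrane-bound serine proteases of epithelia, had values of 4.66, 4.67 and 5.13 in 67NR and 11.67, 11.89 and 12.04 in 4T1, and its target protease matriptase, St14, was at least 13.0-fold higher. Lsr, a component of junctions where 3 cells meet, was at least 13.7-fold higher and the tight junction adhesion molecule F11r at least 9.43-fold. Of the desmosome and gap junction genes, 7 of 8 measured members (19 listed) were higher and 0 were lower, but 4 were detected on no 67NR array. Of the 3 detected on all 6 arrays, 2 were higher and 0 were lower. The desmosomal cadherin Dsg2 was at 4.44, 4.43 and 4.48 in 67NR and at 10.33, 10.48 and 10.35 in 4T1, at least 37.8-fold higher, and the plakophilins Pkp2 and Pkp3, which link desmosomes to keratins, were higher by 3.5 and 2.23. Epcam has no named probe here.

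The promoters of these genes were searched for the 6 letters CACCTG and their reverse complement CAGGTG, the E-box that Snail, Slug and ZEB proteins bind, on both strands of a window from 250 bases before to 50 bases after the start. RefSeq windows (build GRCm38.p6) were found for 13 of the 18 junction genes that were higher, and 9 of these genes had the E-box in at least 1 window, as did 2 of the 4 junction genes with a window that were not higher. Over promoters rather than genes, 13 of 27 windows of measured junction genes held it (48.1%), beside 20.2% of all 32851 windows and 17.7% of the windows of genes tested. Some genes have several windows, and those of Ocln overlap and share an E-box, so windows are not independent. The share by gene over all genes was not counted. No window was found for Cdh1. The windows of the 3 simple keratins that were found all held the E-box, and 1 of 10 windows of the measured EMT factors did. Of the desmosome and gap junction list only 2 windows were found, those of the gap junction genes Gja1 and Gja4, and 0 held it. No window of a desmosome gene was found, so none was searched. The 8-letter grainyhead motif AACCGGTT was in 0 of these windows and in 0.146% of all windows. These words cannot overlap each other, and a match is a description of letters and not of binding. The windows of the junction genes Spint1 (difference 7.04) and Cgnl1 (5.01) did not hold the E-box. From the genes that do hold it, the windows of 5 with large differences are shown to give the positions of the E-boxes, which stand in capitals. Those of Cldn4 begin 14 bases before the start (base -14) and at base 12 after it, that of Cldn3 at base 32, that of Krt8 at base -111, that of Krt18 at base -214 and those of Lsr at bases -249, -219, -151 and -69.
Krt8, chr15:102004293-102004592, minus strand: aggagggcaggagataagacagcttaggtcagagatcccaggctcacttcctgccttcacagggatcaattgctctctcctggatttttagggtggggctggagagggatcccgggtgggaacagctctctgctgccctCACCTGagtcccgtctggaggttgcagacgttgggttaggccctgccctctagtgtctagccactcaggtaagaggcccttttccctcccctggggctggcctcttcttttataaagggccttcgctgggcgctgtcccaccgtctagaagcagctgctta
Krt18, chr15:102027966-102028265, plus strand: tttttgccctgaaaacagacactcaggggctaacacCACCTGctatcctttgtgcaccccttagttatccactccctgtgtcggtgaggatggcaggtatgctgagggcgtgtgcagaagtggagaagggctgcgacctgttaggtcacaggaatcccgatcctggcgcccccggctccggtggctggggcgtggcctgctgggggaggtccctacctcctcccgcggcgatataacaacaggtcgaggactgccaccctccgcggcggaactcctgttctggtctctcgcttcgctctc
Cldn3, chr5:134985964-134986263, plus strand: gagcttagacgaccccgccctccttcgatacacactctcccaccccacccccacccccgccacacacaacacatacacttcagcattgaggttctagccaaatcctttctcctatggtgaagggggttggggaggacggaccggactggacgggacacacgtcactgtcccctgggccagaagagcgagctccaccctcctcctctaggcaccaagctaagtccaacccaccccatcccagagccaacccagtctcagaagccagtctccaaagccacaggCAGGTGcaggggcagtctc
Cldn4, chr5:134946885-134947184, minus strand: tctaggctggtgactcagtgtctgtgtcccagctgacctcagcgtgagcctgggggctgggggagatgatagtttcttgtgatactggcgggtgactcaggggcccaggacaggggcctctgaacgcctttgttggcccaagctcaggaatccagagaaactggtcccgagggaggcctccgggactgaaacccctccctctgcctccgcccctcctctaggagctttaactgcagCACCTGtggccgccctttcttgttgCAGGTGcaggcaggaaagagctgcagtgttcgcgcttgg
Lsr, chr7:30973420-30973719, minus strand: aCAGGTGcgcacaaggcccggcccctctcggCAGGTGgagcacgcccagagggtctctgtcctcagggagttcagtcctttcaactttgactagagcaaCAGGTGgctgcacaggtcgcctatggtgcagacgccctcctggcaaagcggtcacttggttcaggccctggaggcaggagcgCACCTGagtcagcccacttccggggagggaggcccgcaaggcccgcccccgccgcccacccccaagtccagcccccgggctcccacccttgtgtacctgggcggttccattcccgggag

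Of the factors that promote or hold the epithelial state, 8 of 13 measured members (22 listed) were higher and 1 was lower. Of the 7 detected on all 6 arrays, 4 were higher and 1 was lower. Esrp1, an RNA-binding protein that directs epithelial splicing, was at 4.65, 4.49 and 4.41 in 67NR and at 11.70, 11.93 and 12.17 in 4T1, at least 111-fold higher, and its relative Esrp2 was at least 2.71-fold higher. Grhl2, a grainyhead factor that activates Cdh1 and claudin genes, was detected in both lines, at 6.61, 5.95 and 6.03 in 67NR and 8.18, 8.58 and 8.67 in 4T1, a difference of 2.28 (SE 0.19; limma, adjusted p = 1.5e-06). Klf5 and Gata3, factors of epithelial and luminal mammary cells, were higher as well, by 1.37 and 1.16, and the ETS factor Elf3 was at least 2.90-fold higher, with its other 2 kept probes changed by less than 1. The exception was Klf4, a zinc finger factor of epithelial differentiation, with 11.20, 10.82 and 10.89 in 67NR and 9.23, 8.66 and 8.16 in 4T1. Trp63, the p63 gene of basal cells, was not above background on any 67NR array, was detected on 2 of 3 4T1 arrays and did not pass the test (limma, adjusted p = 0.11). Ovol1 did not pass the detection filter.

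EMT transcription factors did not move as a block: of 12 measured members (19 listed), 5 were lower in 4T1, 3 were higher and 4 did not pass the test. The 5 that were lower are Zeb1, Zeb2, Snai2, Twist2 and Prrx1. Zeb1, a repressor of Cdh1, was at 11.01, 11.06 and 10.57 in 67NR and at 6.97, 6.30 and 6.64 in 4T1, a difference of -4.24 (SE 0.24; limma, adjusted p = 5e-08), and its relative Zeb2 differed by -0.97. Snai2, which encodes Slug, was at 8.34, 8.55 and 8.24 in 67NR and was not above background in 4T1, where it was at least 10.0-fold lower. Twist2 (9.02, 8.94 and 8.64 in 67NR) and the paired-type homeobox factor Prrx1 (9.12, 9.18 and 8.65) were not above background in 4T1 either, at least 14.1-fold and 15.2-fold lower. For Zeb1, Snai2, Twist2 and Prrx1 every 67NR array lay far above every 4T1 array. Snai1, which encodes Snail, was at 8.81, 9.35 and 8.77 in 67NR and 9.32, 9.38 and 8.74 in 4T1, and Twist1 was at 10.35, 10.18 and 9.61 against 9.41, 9.65 and 9.33. The arrays of both lines overlapped for both genes, and the differences of 0.17 (SE 0.21) and -0.59 (SE 0.24) did not pass the test (limma, adjusted p = 0.55 and 0.065). In the opposite direction, the forkhead factor Foxq1 was at 4.39, 4.35 and 4.40 in 67NR and at 10.23, 10.29 and 10.49 in 4T1, at least 36.6-fold higher, and Foxc2 was at least 2.49-fold higher.

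The mesenchymal genes themselves were divided, with 4 of 14 measured members (22 listed) higher, 5 lower and 5 not past the test. Vim, the intermediate filament of mesenchymal cells, was at 13.89, 14.09 and 13.83 in 67NR and 13.71, 13.75 and 13.68 in 4T1, a difference of -0.22 (SE 0.12; limma, adjusted p = 0.16), and Cdh2, which encodes N-cadherin, differed by -0.31 (SE 0.31; limma, adjusted p = 0.44) and was detected on all 67NR arrays and 1 4T1 array. Fn1, which encodes fibronectin, was higher in 4T1 by 0.71, although 1 of its other probes differed by -0.57. Genes of the contractile apparatus were among those that fell: Tpm2, a tropomyosin, was at 9.64, 9.48 and 9.74 in 67NR and not above background in 4T1 (at least 23.7-fold lower), the myosin light chain kinase gene Mylk fell by 3.40, and the muscle-type filament gene Des was at least 8.66-fold lower. A second probe of Tpm2 differed by only -0.52. Acta2, the smooth muscle actin, went the other way, from 6.34, 6.02 and 5.38 in 67NR to 7.74, 6.94 and 6.85 in 4T1, a difference of 1.26 (SE 0.38; limma, adjusted p = 0.016). Its call was lost without 4T1 replicate 1, without 67NR replicate 3, with the mean of its probes and in the unmoderated test that the study's methods name (the methods' test). S100a4, also called fibroblast-specific protein, fell by 1.58. Podoplanin, Pdpn, a mucin-like surface protein of lymphatic, myoepithelial and stromal cells, had the largest fall of the genes tested, from 14.18, 13.96 and 14.20 in 67NR to 5.71, 4.86 and 5.14 in 4T1, a difference of -8.88 (SE 0.24; limma, adjusted p = 9.7e-11). In the same range, the membrane skeleton protein gene Epb41l3 was at least 236-fold lower, though its other 2 kept probes differed by less than 1, with the smaller at -0.20.

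**Figure D2:**
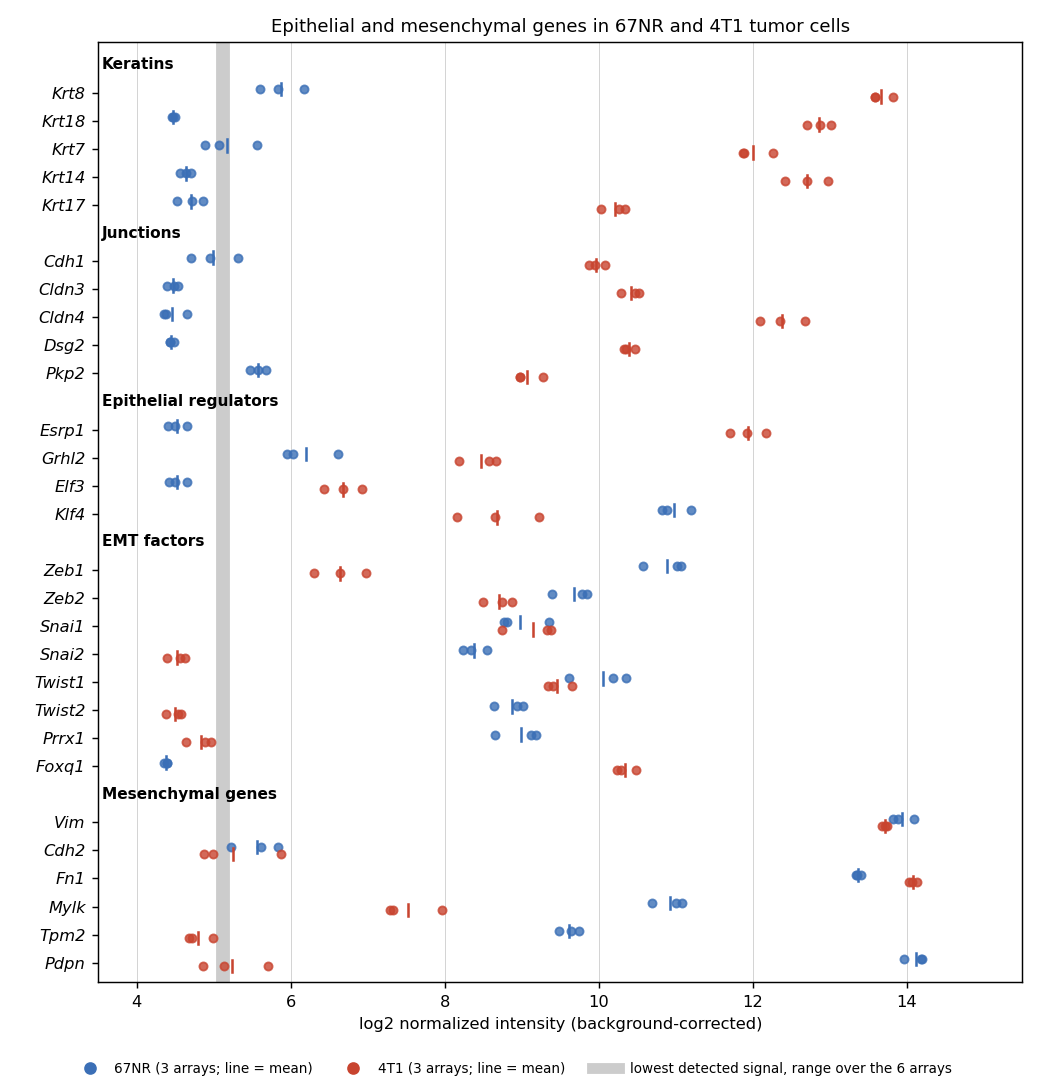
Log2 normalized intensity of epithelial and mesenchymal genes on each of the 3 67NR arrays (blue) and 3 4T1 arrays (red), with a short line at each mean and the range of the lowest detected signal in gray; levels of different genes are not comparable. Keratin and junction genes sit at or near the gray band in 67NR and between 8.97 and 13.81 in 4T1. Snai2, Twist2 and Prrx1 lie above the band in 67NR and not above background in 4T1. Zeb1 is lower in 4T1 but stays above the band there, at 6.30 to 6.97. Vim, Snai1 and Twist1 lie close together in both lines.

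Mammary lineage genes were mixed. Of 8 measured luminal and secretory genes (26 listed), 4 were higher and 3 lower. Wfdc2, a small secreted protein with a whey acidic protein domain, had the largest rise of the genes tested, from 4.56, 4.49 and 4.65 in 67NR to 14.71, 14.80 and 14.72 in 4T1, at least 775-fold. Lcn2, the secreted lipocalin that binds bacterial siderophores, was at 9.54, 8.0 and 6.17 in 67NR and at 13.83, 13.48 and 13.17 in 4T1, a difference of 5.59 (SE 0.63), with a spread among the 67NR arrays far wider than among the 4T1 arrays. The mucin gene Muc1 was at least 4.09-fold higher. Esr1, the estrogen receptor, was detected on all 4T1 arrays at 5.64, 5.45 and 5.63 and on no 67NR array, and the bound on its fold is 1.35. Of 13 measured basal and stem cell genes, 6 were higher and 4 lower, with 3 higher without 4T1 replicate 1. Besides the keratins, Egfr, the receptor of epidermal growth factor, was at least 2.67-fold higher, and Sparc, a matrix protein that binds collagen, fell by 1.91.

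Developmental transcription factors changed in both directions at shares near the background. Among 40 measured homeobox factors, 12 were higher and 12 lower, with 7 higher under the strict filter. Hoxa2 was at 5.51, 5.23 and 5.65 in 67NR and at 8.89, 9.11 and 9.80 in 4T1 (difference 3.80, SE 0.24), and its neighbor in the Hoxa cluster, Hoxa5, rose by 3.57. The Iroquois factor Irx5 was at 8.28, 8.42 and 8.26 in 67NR and not above background in 4T1, at least 9.64-fold lower. Tbx3, a T-box factor of mammary development, was at least 7.89-fold lower, and Gata2, a factor of blood and endothelial cells, fell by 2.62. Hes6, a relative of the Notch targets that acts against Hes1, was at least 15.6-fold higher. The nuclear receptor Rorb was at least 7.05-fold lower, and Nr1d1, a repressor of the circadian clock, fell by 2.93, with values of 9.37, 10.10 and 8.67 in 67NR and 6.70, 6.73 and 5.93 in 4T1.

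The immediate early genes, which cells switch on within minutes of a stimulus, were lower more often than higher. Of 22 measured AP-1, ATF and early factors (33 listed), 9 were lower (40.9%) and 4 higher (18.2%). Over all genes 26.6% were lower and 23.2% higher, a tilt the same way. Of the 19 detected on all 6 arrays 8 were lower and 2 higher, beside 2099 and 1516 of 7520 genes over the whole table. Jun was at 12.94, 13.00 and 12.54 in 67NR and at 11.37, 10.75 and 9.78 in 4T1, a difference of -2.19 (SE 0.33; limma, adjusted p = 0.0002). Nr4a2, an orphan receptor induced by cAMP, fell by 2.89, and Egr2 fell by 2.06, a call lost in the methods' test. Fos, the usual partner of Jun, was at 13.46, 13.50 and 13.28 against 13.66, 13.23 and 12.84 and did not pass the test (difference -0.17, SE 0.20; limma, adjusted p = 0.52). Atf3, a stress-induced member of the family, went the other way, from 4.77, 4.78 and 4.88 in 67NR to 11.35, 11.04 and 9.44 in 4T1, at least 44.1-fold. Within each line the third array was low for this list: it held the lowest value of its line for 16 of 22 genes in 67NR and for 20 of 22 in 4T1, beside 32.3% and 33.0% of all genes. Without 4T1 replicate 3, 7 of the genes were lower in 4T1, and 4 were lower in the methods' test.

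Chemokines draw leukocytes through G protein-coupled receptors and are grouped by the spacing of their first cysteines. In this list 13 of 21 measured members (36 listed) were lower in 4T1, or 61.9%, beside 26.6% of all genes, and 2 were higher, and of the 7 detected on all 6 arrays 5 were lower and 0 higher. Cxcl12, the ligand of Cxcr4 that stromal cells secrete, was at 11.27, 11.21 and 11.92 in 67NR and at 4.64, 4.76 and 4.64 in 4T1, where it was not above background (at least 85.1-fold lower; limma, adjusted p = 1.1e-10). The monocyte chemoattractants followed. Ccl7 was at 12.39, 12.03 and 11.61 in 67NR and 7.54, 6.46 and 5.63 in 4T1, a difference of -5.46 (SE 0.38), and Ccl2 was at 11.75, 11.55 and 10.75 against 8.71, 8.12 and 6.10, a difference of -3.70 (SE 0.52). Cxcl10, an interferon-induced ligand of Cxcr3, fell by 2.45, a call lost in the methods' test. The other interferon-induced ligand of this receptor, Cxcl9, rose: it was at 7.18, 4.67 and 4.97 in 67NR, where 1 of 3 arrays detected it, and at 10.91, 10.50 and 10.55 in 4T1. Cxcl16, a transmembrane chemokine that binds Cxcr6, was at 4.49, 4.45 and 4.38 in 67NR and 9.82, 9.45 and 9.52 in 4T1, at least 21.9-fold higher. Leukocyte markers, which a sort against CD45 should remove, moved with this list: 8 of 12 measured markers (33 listed) were lower in 4T1 and 0 higher, and their summed linear intensity was 3090 to 5040 on the 67NR arrays and 1040 to 1340 on the 4T1 arrays. The lysozyme genes Lyz1 and Lyz2, near-identical copies whose probes may share transcripts, fell by 2.19 and 2.48. Ptprc, which encodes CD45, has no named probe here, and the T cell marker Cd3e and the macrophage marker Adgre1 did not pass the detection filter. The part of leukocytes in the chemokine difference was not tested.

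Cytokines were balanced, with 10 of 34 measured members (64 listed) higher and 10 lower, 29.4% each, near the shares over all genes. Il33, an alarmin of barrier and stromal cells, was at 10.12, 10.52 and 10.00 in 67NR and 4.57, 4.87 and 5.15 in 4T1, a difference of -5.35 (SE 0.21; limma, adjusted p = 1.7e-09), and 1 of 3 4T1 arrays detected it. Lif, a cytokine of the interleukin 6 family, was at 11.40, 10.70 and 10.07 against 9.31, 9.13 and 6.95, and its call was lost in the methods' test. Csf3, which encodes the granulocyte factor G-CSF, was at 4.58, 4.58 and 4.84 in 67NR and at 8.48, 7.43 and 6.17 in 4T1, at least 4.65-fold higher, although its second probe differed by 0.24. Il23a, the p19 subunit of interleukin 23, rose by 3.22 and Tslp, an epithelial cytokine of allergic inflammation, was at least 4.18-fold higher. In 4T1, replicate 3 was the lowest for Csf3, Lif, Ccl2, Ccl7 and Atf3.

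Among growth factors, 9 of 32 measured members (67 listed) were higher (28.1%) and 11 lower (34.4%), beside 23.2% and 26.6% of all genes. Gdnf, the glial cell line-derived factor that signals through Ret, was at 12.60, 11.74 and 11.46 in 67NR and at 4.44, 4.35 and 4.47 in 4T1, at least 118-fold lower. The related Ret ligand Artn rose by 3.77, with another probe at 0.83. Among ligands of the EGF receptor family, Btc, betacellulin, was at least 21.0-fold lower, Nrg1, neuregulin, fell by 2.45 and Hbegf fell by 1.41, whereas Epgn, epigen, rose by 0.97, a call lost without 4T1 replicate 3 or 67NR replicate 2. A second probe of Hbegf differed by only -0.28. Fgf10, a factor of mammary bud outgrowth, was at least 8.95-fold lower. Pdgfb, a chain of platelet-derived growth factor, was at 4.67, 4.66 and 5.16 in 67NR and 10.79, 10.27 and 10.28 in 4T1, a difference of 5.62 (SE 0.28), and Pdgfc rose by 2.94. Of the factors of lymphatic vessel growth, Vegfc was at 4.38, 4.41 and 4.53 in 67NR and 9.10, 9.22 and 9.02 in 4T1, at least 15.7-fold higher, and its relative Vegfd was at least 4.46-fold lower. Ccn2, connective tissue growth factor, rose from 7.67, 8.59 and 6.79 to 12.76, 12.73 and 13.11, by 5.18 (SE 0.34), whereas its family member Ccn1 fell by 2.60.

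Secreted Wnt and TGF-beta family members were higher more often than lower. Of 8 measured Wnt ligands and secretion genes (25 listed), 6 were higher and 0 lower, and 3 of the 4 detected on all 6 arrays were higher. Wnt7b was at 7.89, 7.32 and 6.85 in 67NR and at 12.22, 12.39 and 12.26 in 4T1, a difference of 4.94 (SE 0.23; limma, adjusted p = 6.2e-09), Wnt7a was at least 7.2-fold higher, and Porcn, the enzyme that acylates Wnt proteins, rose by 2.46. Antagonists went both ways: Sfrp1, which binds Wnts, was at least 13.3-fold higher, Notum, which removes their acyl group, rose by 2.01, and Dkk3 was at least 3.02-fold lower. Axin2, a common target of beta-catenin, was detected on all 67NR arrays and no 4T1 array, at least 2.03-fold lower. Of 16 measured TGF-beta family ligands and antagonists (48 listed), 11 were higher and 2 lower, and of the 10 detected on all 6 arrays 9 were higher and 0 lower. Tgfb1 was at 6.33, 6.51 and 6.40 in 67NR and at 8.41, 8.73 and 8.69 in 4T1 (difference 2.19, SE 0.17), and Tgfb3 rose by 1.5. Ltbp4, which tethers latent TGF-beta to the matrix, rose by 4.23, with another probe at 0.83, and the procollagen protease Bmp1 rose by 2.89. Among receptors and effectors of this pathway 8 of 22 were higher and 4 lower, with Tgfbr1 up by 1.58 and the coreceptor Eng up by 2.71.

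Matrix genes changed in both directions, with 15 of 38 measured glycoproteins and proteoglycans (77 listed) higher and 17 lower. Basement membrane genes went both ways. Lamb3, a chain of an epithelial laminin, was at 4.49, 4.55 and 4.87 in 67NR and 11.26, 10.90 and 11.15 in 4T1, at least 62.2-fold higher, Lama5 rose by 4.20, and Col7a1, the anchoring fibril collagen, rose by 3.95. Col17a1, the collagen of hemidesmosomes, fell by 1.32, with its other 2 kept probes changed by less than 1. Col4a1, a network collagen of basement membranes, fell by 0.57, a call that was lost without 4T1 replicate 1 or 2 and without 67NR replicate 1 or 2. Mgp, an inhibitor of calcification, rose by 6.08. Fbln1, which encodes fibulin, was at 11.57, 11.34 and 11.50 in 67NR and 5.38, 5.14 and 5.27 in 4T1, a difference of -6.21 (SE 0.14; limma, adjusted p = 3.4e-11). The small leucine-rich proteoglycan genes Ogn (-4.02) and Lum (at least 6.90-fold lower) fell, as did Loxl1, which crosslinks elastin, by 6.02. Of 17 measured collagens 2 were higher and 3 lower, so that fewer were called (29.4%) than over all genes (49.8%). Only 1 was lower without 4T1 replicate 1, 67NR replicate 1 or 67NR replicate 2.

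Proteases and their inhibitors changed in both directions. Of 23 matrix metalloproteases and ADAMs measured (48 listed), 10 were lower and 5 higher. Mmp13, a collagenase, was at 5.57, 4.92 and 4.99 in 67NR, where 1 of 3 arrays detected it, and at 12.16, 11.32 and 10.59 in 4T1, a difference of 6.20 (SE 0.34), and the gelatinase Mmp9 rose by 1.45. The other gelatinase, Mmp2, was at 10.23, 10.24 and 9.88 in 67NR and 6.19, 5.32 and 5.79 in 4T1, a difference of -4.35 (SE 0.27). Serpinf1, the antiangiogenic serpin PEDF, fell from 13.40, 13.22 and 12.84 to 6.66, 5.69 and 7.03, by 6.69 (SE 0.32), although its second probe differed by only -0.13. Slpi, an inhibitor of leukocyte elastase, rose by 2.84. Guidance factors were more often lower, with 14 of 30 measured semaphorins, slits, netrins and receptors lower and 8 higher. These are 46.7% and 26.7%, beside 26.6% lower and 23.2% higher over all genes. Sema5a fell by 4.37 (2 of its other probes differed by less than 1), Sema7a fell by 3.77, and Sema3f, which repels endothelial cells and neurons, rose by 3.88.

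**Figure D3:**
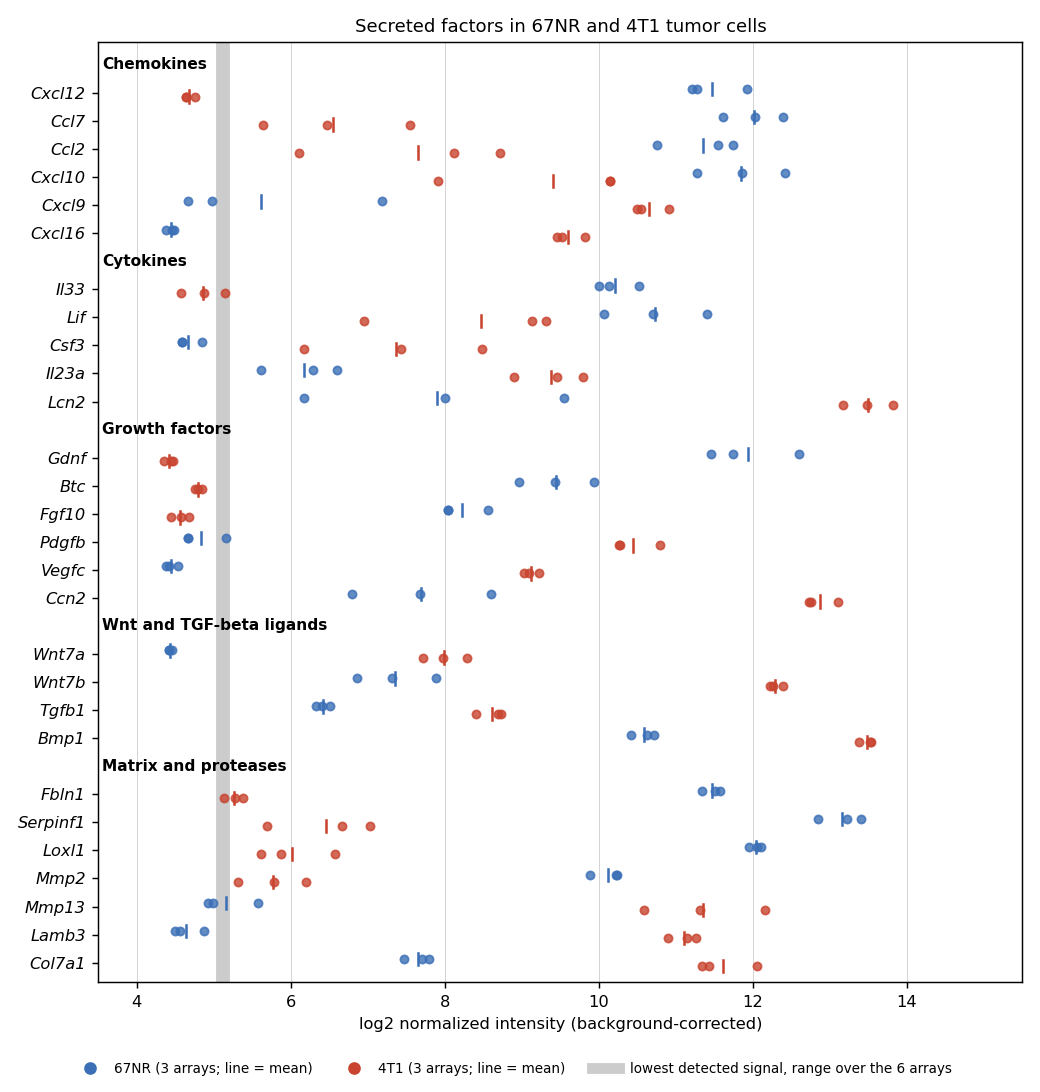
Log2 normalized intensity of secreted factors on each of the 3 67NR arrays (blue) and 3 4T1 arrays (red), with a short line at each mean and the range of the lowest detected signal in gray; levels of different genes are not comparable. Cxcl12, Gdnf, Il33 and Fbln1 lie at 10.00 or higher in 67NR and near the gray band in 4T1, and Pdgfb, Vegfc, Mmp13 and Lamb3 show the opposite arrangement.

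Of 17 measured integrin subunits 7 were higher and 5 lower. Itgb4, the beta chain of the hemidesmosomal laminin receptor, was at 9.19, 8.43 and 7.70 in 67NR and 12.90, 13.12 and 13.13 in 4T1, a difference of 4.61 (SE 0.29; limma, adjusted p = 1.2e-07), and Itga3, a laminin-binding alpha chain, rose by 1.85. Itga5, the alpha chain of the fibronectin receptor, fell by 1.96. Eph receptors and ephrins, which signal between touching cells, had 7 of 10 measured members (22 listed) higher and 0 lower. Of the 6 detected on all 6 arrays, 3 were higher and 0 lower. Epha1 was at 4.52, 4.49 and 4.41 in 67NR and at 8.68, 8.20 and 8.4 in 4T1, at least 9.71-fold higher, with 1 of its other probes at 0.48, and Efnb1 rose by 3.46. Among receptor tyrosine kinases, 10 of 27 were higher and 9 lower. Ptk7 was at least 4.12-fold higher and Flt1 rose by 2.45. Both receptors of platelet-derived growth factor were lower. Pdgfra was at 10.57, 11.13 and 10.70 in 67NR and 9.02, 8.99 and 9.04 in 4T1 (difference -1.79, SE 0.17), and Pdgfrb fell by 1.66. Ror2 was at least 3.53-fold lower. A second probe of Pdgfra differed by only -0.04. Frizzled receptors Fzd6 (at least 18.5-fold) and Fzd7 (2.98), and the planar polarity genes Vangl2 (at least 8.90-fold) and Prickle1 (at least 5.51-fold), were higher.

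Cytokine and TNF family receptors had 12 of 34 measured members (72 listed) higher and 4 lower, but 8 members were detected on no 67NR array. Of the 17 detected on all 6 arrays, 2 were higher and 3 lower. Tnfrsf21, a death domain receptor, was at 4.73, 4.5 and 4.77 in 67NR and 8.84, 9.28 and 9.40 in 4T1, at least 16.3-fold higher, and Cd40, the costimulatory receptor, was at least 6.48-fold higher. Among 50 measured surface antigens (84 listed), 20 were higher and 16 lower. Cd276, the checkpoint protein B7-H3, was at 4.54, 4.52 and 4.35 in 67NR and 10.48, 10.31 and 10.66 in 4T1, at least 40.5-fold higher, and the adhesion molecule Alcam was at least 7.86-fold higher. Cd109, a GPI-anchored coreceptor of TGF-beta, was at 9.90, 10.00 and 9.78 in 67NR and not above background in 4T1, at least 28.6-fold lower. Cd34 was at least 9.91-fold lower and the tetraspanin Tspan6 at least 22-fold lower. Cd44, the hyaluronan receptor that is spliced into many forms, differed by probe. The probe that represents it fell by 0.69, from 12.33 to 11.64 in the means, whereas 4 of its 7 kept probes differed by 1.04 to 3.98 in the opposite direction. The mean over its probes was higher in 4T1 by 1.08, so no direction is given for the gene.

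Antigen presentation and interferon response genes were higher: 24 of 32 measured MHC and processing genes were higher and 1 lower, and 39 of 60 measured interferon-stimulated genes were higher and 5 lower. In the latter list the median difference was 0.82, and 26 of the 41 members detected on all 6 arrays were higher and 4 lower. Of the 25 MHC and processing genes detected on all 6 arrays, 18 were higher and 0 lower. Psmb8, a subunit of the immunoproteasome, was at 6.33, 5.74 and 5.38 in 67NR and 13.15, 13.14 and 13.28 in 4T1, a difference of 7.38 (SE 0.21), and the ubiquitin ligase gene Dtx3l rose by 4.22, with another probe at 0.05. Ciita, the transactivator of MHC class II, was at least 6.25-fold higher. Ifi27l2a went against the list, from 10.00, 10.30 and 10.15 to 5.28, 5.19 and 5.19, a fall of 4.93.

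In signalling, of 41 measured RAS, ERK and PI3K regulators (64 listed), 16 were lower and 7 higher. These are 39.0% and 17.1%, beside 26.6% lower and 23.2% higher over all genes. Of the 37 detected on all 6 arrays, 15 were lower and 4 higher. Among those lower were phosphatases that inactivate MAP kinases: Dusp1 fell by 1.18 (SE 0.15), and Dusp5 was at 11.49, 10.84 and 10.17 against 8.80, 8.43 and 8.01 (difference -2.42, SE 0.38). Dusp14 fell by 1.89 and Dusp8 by 2.19, the latter a call lost in the methods' test. In the NF-kappaB list 12 of 41 were higher and 9 lower. Bcl3, an atypical IkB protein, was at least 6.33-fold higher, and Nfkbia, the inhibitor IkB-alpha, was at 13.85, 13.69 and 12.88 against 12.72, 12.33 and 10.12 (difference -1.75, SE 0.53; limma, adjusted p = 0.018). The call of Nfkbia was lost without 67NR replicate 1 (adjusted p = 0.056 with limma) or without 67NR replicate 2 (adjusted p = 0.057 with limma).

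Of 23 measured genes of the Janus kinase and STAT list, 7 were higher and 7 lower, 30.4% each, beside 23.2% and 26.6% of all genes. Jak2 was at 8.86, 8.80 and 8.39 in 67NR and 11.42, 11.34 and 11.51 in 4T1, a difference of 2.74 (SE 0.15), Jak3 rose by 3.22 and Stat3 rose by 0.85. Of the suppressors of cytokine signalling, Socs1 was at least 2.49-fold lower, Socs2 fell by 1.66 and Socs3 fell by 0.84 (not called in the methods' test), while Cish rose by 2.60. The Hippo list had 6 of 23 members higher (26.1%) and 5 lower (21.7%), near the shares over all genes. In it the kinase Nuak2 rose by 3.86 and the factor Tead2 by 2.17, while the cofactor Vgll3 fell by 3.48. In the Notch list 6 of 21 were higher (28.6%) and 3 lower (14.3%), but of the 13 detected on all 6 arrays 1 was higher and 3 were lower. Nrarp, a target and inhibitor of Notch, was at least 14.4-fold higher and Notch4 fell by 2.31. The Hedgehog binding protein Hhip and the ligand Dhh were at least 6.95-fold and 5.48-fold higher.

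**Figure D4:**
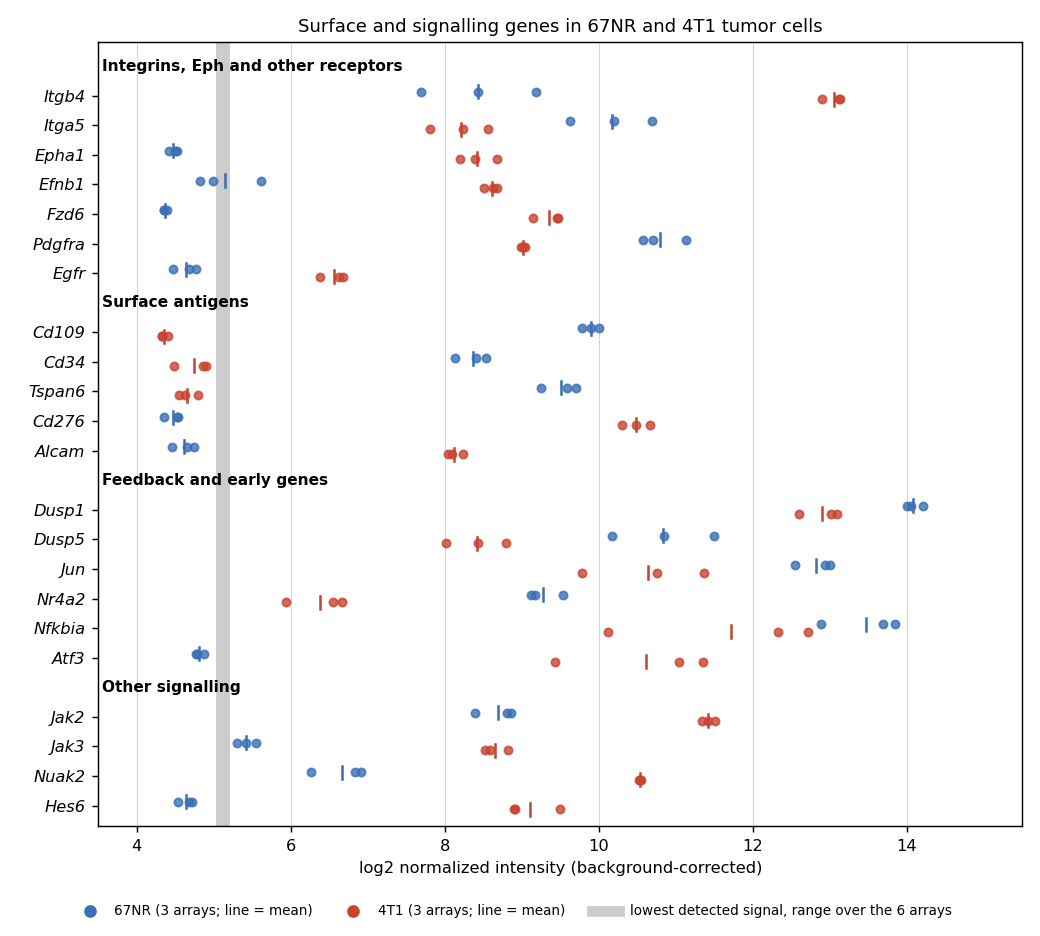
Log2 normalized intensity of surface and signalling genes on each of the 3 67NR arrays (blue) and 3 4T1 arrays (red), with a short line at each mean and the range of the lowest detected signal in gray; levels of different genes are not comparable. Itgb4, Jak2 and Nuak2 are higher on every 4T1 array than on any 67NR array, Cd109 and Tspan6 are lower, and the 4T1 values of Nfkbia run from 10.12 to 12.72.

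Markers of other cells that a sort might have let through differed by cell type. Of 15 measured fibroblast and pericyte markers (22 listed), 11 were lower and 2 higher, and their summed linear intensity was 25500 to 27600 on the 67NR arrays and 2020 to 2180 on the 4T1 arrays. This list shares Pdpn, Fbln1, Des and S100a4 with the genes described above. Pdpn, at log2 values of 14.18, 13.96 and 14.20 in 67NR, made up most of the 67NR sum. Of its collagens, Col1a1 was measured at means near background and did not pass the test (difference 0.15), and Col1a2 and Col3a1, with Postn and Thy1, did not pass the detection filter. Erythrocyte and platelet markers were lower for 4 of 4 measured genes (15 listed), with a summed intensity of 424 to 616 in 67NR and 111 to 120 in 4T1. The call of the beta globin Hbb-bs (difference -0.64) was lost in the fit of only the 6 arrays, in the methods' test and without any single 4T1 replicate. Hba-a1, the alpha globin, was at 8.45, 8.43 and 7.63 in 67NR and not above background in 4T1, at least 8.69-fold lower. Endothelial markers had 2 of 9 measured genes higher and 2 lower, with a summed intensity of 659 to 713 in 67NR and 991 to 1270 in 4T1. The 2 that were higher are Eng, also described above, and Egfl7, whose other 2 kept probes changed by less than 1. Cd34 was among the lower, and Pecam1 and Cdh5 did not pass the detection filter. Adipocyte, muscle and nerve markers had 2 of 6 measured genes higher, Tnni2 (by 2.81) and Mbp (at least 10.6-fold), and 0 lower. The summed intensity of this list was 298 to 331 in 67NR and 1230 to 1650 in 4T1. The part of these cells in the differences above was not tested.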

How the data were processed

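Gene expression was measured on Illumina mouse bead arrays in sorted 67NR and 4T1 tumor cells, 3 arrays each. The authors deposited an intensity on a linear scale for each of 45281 probes, neither background-subtracted nor normalized, and the detection p-value that goes with it. They also deposited log2 values of 22834 probes, quantile-normalized to a common median of 7.48; how they were made is not given in the sources consulted. Probes were named through the platform annotation: 19281 of these probes had 1 gene, 10 several and 3543 none.

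Intensities were corrected and quantile-normalized by the neqc function of limma (version 3.58.1, R version 4.3.3), with an offset of 16. A probe was kept where its detection p lay under 0.05 on 3 or more of the 9 arrays. The brightest kept probe on average stood for each of the 3887 genes that had several. All 9 arrays entered the lmFit and eBayes fit of the 10021 genes. Of 102 called named genes with several kept probes, 4 (Elf4, Acta2, Cd44 and Fn1) had another probe with the opposite sign.

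The members of the lists were chosen with earlier results of these data known. Named genes were up to 4 of each list with the largest called differences and arrays that do not overlap, the 15 largest rises and 15 largest falls, and a fixed set (204 genes); further list members and Xist, 43 genes, were named after their values were seen. Alternatives were other background corrections, normalizations, filters and probes, a 2-fold threshold, a fit of only the 6 arrays, the methods' test, a block for the replicate number, and the omission of single arrays. No slide is named, so it could not be a block. The fit was tested on simulated data with known changes. Whether arrays with the same replicate number are paired is not stated. The number of arrays limits the precision. One of the lists is not reported here.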

Additional observations from a re-analysis of the deposited data

Results flagged for a closer look

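A signal in data that the comparisons above do not use came from probes without a gene name in the platform annotation. Of 3161 such probes that passed the detection filter, 1111 (35.1%) differed between 4T1 and 67NR in the limma fit over 18856 probes, 563 of them higher in 4T1 and 548 lower. This share lies below the 43.7% of all probes in that fit that differed.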

How the results depend on the processing

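Of the numbers of genes that differed, only the 2-fold threshold moved them by over 1.5 times, to 2197 genes, 1107 higher and 1090 lower. Leaving out 1 array gave 4409 to 4627 genes, 2068 to 2189 higher and 2322 to 2466 lower. The replicate number as a block gave 4938 genes, 2288 higher and 2650 lower. Over all genes, same-numbered arrays deviated together with correlations of 0.05, 0.15 and 0.13. Such a correlation cannot show whether the numbers pair the arrays for a part of the genes. Among the immediate early factors, replicate 3 was lowest for 16 of 22 genes in 67NR and for 20 of 22 in 4T1. Centring each array on its median in place of quantile normalization gave 2524 higher and 2047 lower and moved the median of all genes from -0.05 to 0.05, while centring on detected probes, chosen after seeing the data, gave 2077 and 2872 with a median of -0.12. The methods' test, which shares no spread between genes, gave 1910 higher and 2102 lower. Of 247 named genes, 240 were called, and 17 lost the call or changed direction under an alternative other than the 2-fold threshold; these include Cxcl10, Lif, Dusp8, Egr2, Socs3 and Nfkbia, which did not pass the methods' test. The sign turned for Cd44 (1.08 with the mean of all kept probes), Fos (-0.38 to 0.0325 over the arrays left out, with 0.0325 without 4T1 replicate 3) and Col1a1 (-0.19 to 0.40, with -0.19 without 4T1 replicate 1). Of 104 list counts, 80 stayed within 1.5 times under every alternative other than the 2-fold threshold. The causes were not tested. Signal at background limits the folds given as bounds.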

Other observations

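Called genes were not spread evenly over chromosomes. On chromosome 14, 48.6% of 327 tested genes were higher in 4T1 and 8.26% were lower, and on chromosome X 41% of 300 were higher and 17.3% lower, beside 23.2% and 26.6% of all genes. Chromosome 7 had the opposite balance, with 12.9% of 754 genes higher and 43.5% lower. Neighboring genes are not independent, and the balance was not tested. Xist, the RNA that coats the inactive X chromosome, was at 9.25, 10.31 and 9.62 in 67NR and was not above background on any 4T1 array, at least 25.5-fold lower.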
